A study of Oryctolagus cuniculus with 20 samples.

Results

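The drug and xenobiotic metabolism enzyme genes were 20 genes, measured by 56 of the 43603 gene probes on a rabbit microarray. They were the probes whose gene name, or whose symbol in parentheses in the probe description, began with CYP and a digit, UGT, GST, FMO or SULT. They came to 20 of the 856 genes that could be named, since only 2477 probes carried a gene symbol. The tissue was the condylar cartilage of the temporomandibular joint (TMJ), the layer that caps the jaw's condyle, taken from male rabbits (Oryctolagus cuniculus) aged 6 months. The control group was 4 rabbits with no treatment, and the other 4 groups were rabbits whose left joint had been subjected to TMJ internal derangement (ID), a displacement of the joint's disc, and was collected 1, 2, 4 or 8 weeks later. Each group had 4 one-colour arrays, 20 in all. No sham-operated group was among the samples, and the labels do not say how the cartilage was separated from its surroundings. The comparisons ask how the cartilage differed from untreated cartilage at each time, and how the times differed from each other.

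These enzymes make foreign and internal small molecules easier to excrete. Cytochromes P450 (CYP) and flavin-containing monooxygenases (FMO) put oxygen onto a substrate. Glutathione S-transferases (GST), sulfotransferases (SULT) and UDP-glucuronosyltransferases (UGT) then join glutathione, sulfate or glucuronic acid to it. They are best known from liver, gut, kidney and lung, and some of them act on the body's own sterols, steroids and bile acids.

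Values below are levels on the log2 scale, log2 of an array's processed intensity minus the 75th percentile of that array, so that 0 is the array's 75th percentile. A difference is the mean of one group minus the mean of another on that scale. Levels of different genes are not set against each other, since probes differ in brightness for the same amount of RNA. To be tested, a probe needed the scanner's well-above-background flag on 3 or more arrays of any one group. This left 26905 probes, 37 of them of 17 members. Each gene is given by its tested probe with the highest mean level. A difference was called at an adjusted p under 0.05 in limma's moderated test over all 26905 probes, two-sided, with Benjamini-Hochberg adjustment. Where every array of a group was below background, the fold is given as a lower bound, "at least N-fold", against each array's detection floor or the probe's own signal if that was higher.

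The arrays had 49.1% to 66.4% of their gene spots well above background. Each group lay on a slide of its own, so slide and group cannot be told apart. The control and week 2 arrays were scanned on one day and the week 1, 4 and 8 arrays on another, so scan day and group cannot be told apart in any comparison of the control with weeks 1, 4 or 8. The 4 chondrocyte markers were all among the tested genes. SOX9, above background on no control array, was at least 1.99-fold higher at week 1 (limma adjusted p = 0.019). It passed the filter for testing only through ID groups, a selection that favours calls of higher. The 8 tested muscle genes stood apart in the control. Their summed linear level was 77.6, 343, 7.49 and 3.62 in control replicates 1 to 4 and 0.742 to 2.12 in the 16 ID arrays, and each of the 8 was lower in at least 1 ID group. The labels do not name muscle, and the part that muscle played in the member results was not tested. Results are therefore also given without control replicates 1 and 2. Calls over all probes then fell from 3732, 2304 and 3436 to 1479, 776 and 964 at weeks 1, 4 and 8. For a call lost there, muscle and the smaller number of control arrays cannot be told apart. Week 1 replicate 4 also stood apart, with the lowest share of spots above background, 49.1%, and a summed chondrocyte level of 2590 against 374 to 745 in the other week 1 arrays.

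Of the 20 members, 3 passed the test in at least 1 comparison. FMO2 and SULT2A1 were higher at weeks 1, 4 and 8 than in the control, and CYP7 was lower at weeks 1 and 8. FMO2 and SULT2A1 passed the filter for testing only through weeks 1, 4 and 8, a selection that favours calls of higher. The plot of these 3 members shows every array.

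**Figure D1:**
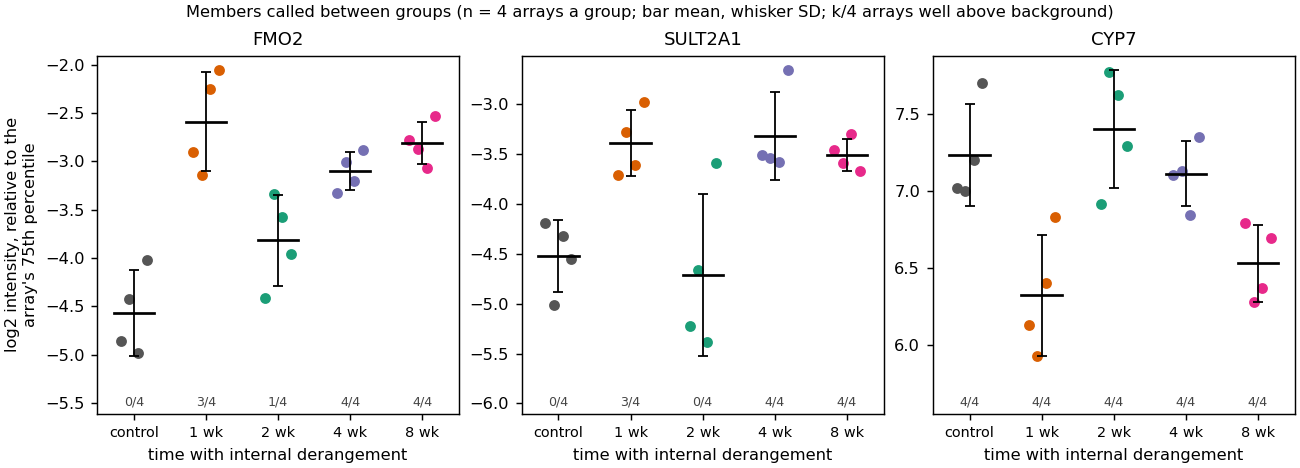
Levels of FMO2, SULT2A1 and CYP7 on each of the 20 arrays (points), with the group mean (bar) and SD (whisker); the y axis is log2 intensity relative to the array's 75th percentile, the x axis the group. The numbers under the points are arrays well above background, and FMO2 and SULT2A1 had 0 of 4 in the control against 3 or 4 of 4 at weeks 1, 4 and 8. Both passed the filter for testing only through those weeks.

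The probes of SULT2A1, FMO2, CYP2A11 and UGT1-6, each 60 letters long, are printed 5′ to 3′ as the scanner files give them. Positions count from the start of the transcript the probe was designed on; genome coordinates were not used here. The 5 SULT2A1 probes are shown because they are tiled over nearly the same letters yet were not called alike; capitals mark the 52 letters that all 5 share.
SULT2A1 at position 783: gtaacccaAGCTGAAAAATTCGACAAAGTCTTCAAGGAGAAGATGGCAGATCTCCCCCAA
SULT2A1 at position 784: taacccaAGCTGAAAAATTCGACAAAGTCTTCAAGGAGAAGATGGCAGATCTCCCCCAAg
SULT2A1 at position 785: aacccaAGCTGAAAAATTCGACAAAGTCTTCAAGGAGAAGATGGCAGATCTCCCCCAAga
SULT2A1 at position 790: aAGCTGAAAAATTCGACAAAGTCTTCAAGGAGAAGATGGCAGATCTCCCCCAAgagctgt
SULT2A1 at position 791: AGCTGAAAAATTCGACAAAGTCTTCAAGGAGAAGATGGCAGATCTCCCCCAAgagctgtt

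The FMO2 probe below is the one that was called. The CYP2A11 probe disagreed with another probe of its gene at week 4, and the UGT1-6 probe at week 1. Capitals mark the longest run of letters that a probe of another gene also holds on either strand, 13 to 15 letters of 60.
FMO2 at position 1438: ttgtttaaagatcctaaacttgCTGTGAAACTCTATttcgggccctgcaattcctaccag
CYP2A11 at position 918: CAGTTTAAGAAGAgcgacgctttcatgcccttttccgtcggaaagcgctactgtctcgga
UGT1-6 at position 1325: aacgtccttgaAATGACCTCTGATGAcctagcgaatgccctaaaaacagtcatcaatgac

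FMO2 encodes a flavin-containing monooxygenase that is the main form in rabbit lung; the file's description calls the entry non-functional. Its control levels were -4.86, -4.42, -4.98 and -4.02, with no array above background. At week 1 they were -2.90, -3.14, -2.25 and -2.06, and at week 2 -4.41, -3.34, -3.58 and -3.96. They were -3.33, -3.01, -3.2 and -2.88 at week 4 and -2.78, -2.87, -3.07 and -2.53 at week 8. Every array of weeks 1, 4 and 8 was above every control array, while week 2 overlapped the control. The mean rose from -4.57 ± 0.44 (SD, n = 4) to -2.59 ± 0.51 (SD, n = 4) at week 1, a difference of 1.98 (SE 0.27, limma adjusted p = 6e-05), which is at least 2.35-fold. The differences were 1.47 at week 4 (limma adjusted p = 0.0018, at least 1.64-fold) and 1.76 at week 8 (limma adjusted p = 0.00031, at least 2.01-fold). At week 2 the difference was 0.75 (limma adjusted p = 0.40). Without control replicates 1 and 2 FMO2 was still called, at 1.91, 1.40 and 1.69 for weeks 1, 4 and 8 (limma adjusted p = 0.0026, 0.035 and 0.0094). Without week 1 replicate 4 the week 1 difference was 1.81 (limma adjusted p = 0.00029). The other FMO2 probes, at positions 1320 and 2439, were above background on 1 array and on none and were not tested.

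SULT2A1 is the sulfotransferase that acts on dehydroepiandrosterone and bile acids. At position 790 its control levels were -4.19, -5.01, -4.32 and -4.55, with no array above background. They were -3.71, -3.28, -3.61 and -2.98 at week 1, and -5.22, -4.66, -5.38 and -3.59 at week 2. They were -3.51, -3.54, -3.58 and -2.66 at week 4 and -3.46, -3.59, -3.30 and -3.67 at week 8. The week 1, 4 and 8 arrays all lay above the control arrays, and week 2 spanned them. The mean rose from -4.52 ± 0.36 (SD, n = 4) by 1.12 at week 1 (SE 0.32, limma adjusted p = 0.026, at least 1.34-fold). It was 1.20 above the control at week 4 (limma adjusted p = 0.026, at least 1.41-fold) and 1.01 at week 8 (limma adjusted p = 0.044, at least 1.24-fold).

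The SULT2A1 calls rested on that probe alone. The probe at position 791, which differs by 1 letter at each end, was 0.87, 0.94 and 0.86 above the control at weeks 1, 4 and 8 (limma adjusted p = 0.21, 0.21 and 0.23). At position 784 the differences were 1.05, 0.50 and 1.18 (limma adjusted p = 0.16, 0.57 and 0.12). The probes at positions 783 and 785 were above background on 0 and 2 of 20 arrays and were not tested. Without control replicates 1 and 2 none of the 3 calls at position 790 was left, at 1.04, 1.11 and 0.93 (limma adjusted p = 0.15, 0.18 and 0.25). The week 1 call was also lost without control replicate 2, week 1 replicate 2 or week 1 replicate 4 (limma adjusted p = 0.086, 0.057 and 0.078). The week 4 call was lost without control replicate 2 or week 4 replicate 4 (limma adjusted p = 0.089 and 0.099), and the week 8 call in 14 of the 20 fits that left out 1 array, among them each control and each week 8 array.

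Read against all probes, these counts were near the background. At week 1, 3 members were called, 2 higher and 1 lower; 13.9% of all tested probes were called, 9.77% higher and 4.1% lower. At week 4 it was 2 members, both higher, against 8.56% of all probes (6.42% higher and 2.15% lower). At week 8 it was 3, 2 higher and 1 lower, against 12.8% (8.53% higher and 4.24% lower). Of the 1382 tested probes that, like FMO2 and SULT2A1, had no control array above background, 49.1% were called higher at week 1, 44.2% at week 4 and 46.9% at week 8. Such probes entered the test only through an ID group, a selection that favours calls of higher. Dim probes in general were the 4778 tested probes with a mean level under -3. Of these, 14% were above background on all 4 arrays of the control and 14% on all 4 of week 1. At weeks 2, 4 and 8 it was 10.3%, 37.3% and 54.6%. Above background on no array were 28.3% in the control and 3.33%, 24.8%, 10.2% and 5.65% at weeks 1, 2, 4 and 8. What part this played in the FMO2 and SULT2A1 results was not tested. With the normexp background correction, which added an offset of 50 to each intensity, none of the 3 members was called. FMO2 at week 1 then differed by 0.37 (limma adjusted p = 0.94). The lowest intensity flagged well above background was 15.9 to 39.6 over the arrays, below that offset on each. The part of the offset in these results was not tested. Among all probes that correction left 44 calls at week 1, against 3732. With the arrays centred on their medians instead, the week 1 calls over all probes split into 1851 higher and 1891 lower, against 2628 and 1104, and the median of all probes was at -0.12.

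CYP7 is cholesterol 7-alpha-hydroxylase, the rate-limiting enzyme of bile acid synthesis from cholesterol, and had 1 probe, at position 2603. With no second probe, its signal could not be checked against another probe of the gene, and which transcript it detects was not tested. CYP7 was bright on all 20 arrays. Its control levels were 7.02, 7.0, 7.20 and 7.70, and its week 1 levels 6.13, 5.93, 6.40 and 6.83. It read 6.91, 7.77, 7.62 and 7.29 at week 2, 7.10, 7.13, 6.84 and 7.35 at week 4, and 6.79, 6.28, 6.37 and 6.69 at week 8. Each week 1 and week 8 array was below every control array, while weeks 2 and 4 overlapped the control. The mean fell from 7.23 ± 0.33 (SD, n = 4) to 6.32 ± 0.39 (SD, n = 4) at week 1, a difference of -0.91 (SE 0.22, limma adjusted p = 0.010), or 1.88-fold lower. At week 8 it was 1.62-fold lower (difference -0.70, limma adjusted p = 0.044). At weeks 2 and 4 the differences were 0.16 and -0.13 (limma adjusted p = 0.95 and 0.77). Without control replicates 1 and 2 the week 1 call was kept at -1.13 (limma adjusted p = 0.021) and the week 8 call was lost at -0.92 (limma adjusted p = 0.077). Without week 1 replicate 4 the week 1 difference was -1.08 (limma adjusted p = 0.0034). The week 8 call was lost in 12 of the 20 fits without 1 array, among them each control and each week 8 array. Among the 1061 tested probes with a mean level over 5, 8.58% were called lower at week 1 and 14.6% at week 8.

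Of the other FMO genes, FMO1, FMO4 and FMO5 were not called. FMO1, the kidney and liver form, was above background on all 20 arrays, with a control mean of 2.71 ± 0.34 (SD, n = 4). Its week 1 levels were 2.18, 1.96, 2.27 and -0.87, so that replicate 4 alone lay far below the control. The week 1 difference was -1.32 (SE 0.57, limma adjusted p = 0.13), and -0.57 without that replicate (limma adjusted p = 0.40). FMO1's means were 3.14, 1.66 and 2.69 at weeks 2, 4 and 8, and none of its 6 probes was called. FMO4 had means of -0.77 in the control and -0.32 at week 1, with no overlap of the arrays (limma adjusted p = 0.10). FMO5 stayed near the floor, with means of -3.92 to -3.59 and 9 of 20 arrays above background.

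Among the other cytochromes P450, CYP2C16, a member of a drug-metabolising subfamily, had its highest levels at week 4. It read -2.38, -0.93, -0.90 and -0.93 in the control and -0.52, -0.17, -0.12 and 0.21 at week 4. These levels are from the probe at position 1899. The other CYP2C16 probes, at positions 1818 and 1859, were above background on no array and were not tested. At position 1899 the week 4 arrays lay above all control arrays and all week 1 arrays. The difference was 1.13 from the control (limma adjusted p = 0.11) and 1.6 from week 1 (SE 0.42, limma adjusted p = 0.087), so that neither was called. Without week 1 replicate 4 the difference from week 1 was 1.98 and was called (limma adjusted p = 0.0096).

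CYP2A11, of the coumarin hydroxylase subfamily, had 2 tested probes, whose means differed from the control in opposite directions at week 4 only. At position 918 it read -5.36, -2.89, -3.33 and -2.19 in the control, with 3 arrays above background. At week 4 it read -6.05, -5.60, -6.17 and -5.89, and at week 8 -5.09, -5.67, -5.57 and -6.02, with no array above background. The probe passed the filter for testing only through the control, a selection that favours calls of lower. All week 4 arrays lay below the control arrays, while week 8 overlapped control replicate 1. The differences were -2.48 at week 4 (SE 0.64, limma adjusted p = 0.023, at least 1.45-fold lower) and -2.14 at week 8 (limma adjusted p = 0.035, at least 1.73-fold lower). The week 4 call was lost without any of control replicates 2, 3 and 4 or week 4 replicates 3 and 4 (limma adjusted p between 0.053 and 0.07). The week 8 call was lost without any of those 3 control arrays or any week 8 array (limma adjusted p between 0.056 and 0.11). Without both control replicates 1 and 2 the calls were kept, at -3.16 and -2.82 (limma adjusted p = 0.016 and 0.029). At position 2143, the brighter probe, the control arrays ranged from -6.28 to 0.63 and week 4 was 1.85 above the control (SE 1.30, limma adjusted p = 0.42). At weeks 1, 2 and 8 its differences were -0.84, -1.09 and -0.24 (limma adjusted p = 0.71, 0.93 and 0.93). The probe at position 918 was also lower at those weeks. The plot of the CYP2A11 probes shows both.

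**Figure D2:**
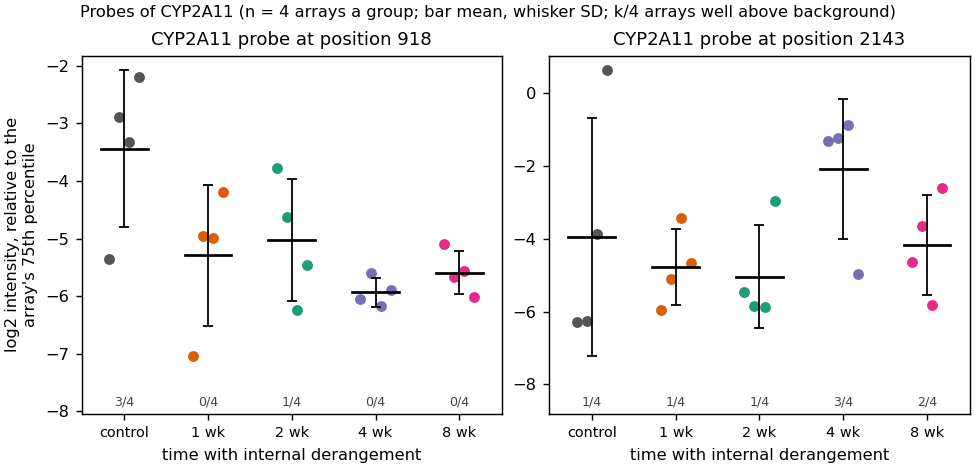
Levels on each of the 20 arrays (points) of the CYP2A11 probes at positions 918 and 2143, with group mean (bar), SD (whisker) and arrays of 4 well above background; the y axis is log2 intensity relative to the array's 75th percentile and has its own range in each panel. At week 4 the probe at position 918 differed from the control by -2.48 and was above background on no array, while the one at position 2143 was above background on 3.

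The remaining P450 genes act on sterols and steroids. The gene named CYP26 in the file is described there as sterol 26-hydroxylase, a mitochondrial enzyme of bile acid synthesis, and not as the retinoic acid hydroxylase that bears that name today. Its means were -0.87, -0.87, -0.54, -0.90 and -0.59 in the control and at weeks 1, 2, 4 and 8, and its week 2 arrays lay above the control arrays without being called (limma adjusted p = 0.36). CYP8B1, the sterol hydroxylase that sets the kind of bile acid made, was above background on 1, 2, 0, 2 and 4 arrays of those groups and was not called. CYP11B2, the aldosterone synthase gene, was not above background on any array.

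The transferases other than SULT2A1 were not called either. GSTM2, a mu-class glutathione S-transferase and the only GST gene among the members, read 3.08, 5.08, 4.62 and 4.43 in the control and 5.70, 5.50, 5.66 and 4.90 at week 2. Its spread in the control was wide, and the week 2 difference of 1.14 was not called (limma adjusted p = 0.46). UGT1-6, a glucuronosyltransferase for phenols, had a control mean of -0.15 ± 0.33 (SD, n = 4) and read -0.68, -0.85, -0.34 and -2.43 at week 1. The difference was -0.93 (SE 0.31, limma adjusted p = 0.053), and -0.48 without week 1 replicate 4 (limma adjusted p = 0.086). With median centring it was called at -1.07 (limma adjusted p = 0.041), and so it was without control replicate 4 or week 1 replicate 1 or 3 (limma adjusted p = 0.035, 0.04 and 0.018). The other tested UGT1-6 probe, at position 1372 and above background on all 20 arrays, differed by -0.03 at week 1 (SE 0.15, limma adjusted p = 0.91), so that the probes disagreed.

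SULT2B1B, which sulfates cholesterol, was above background on 3 week 1 arrays and on no other. Its week 1 difference was 0.74 (limma adjusted p = 0.50). SULT4A1, a brain sulfotransferase, kept means of 1.86 to 2.38, and UGT2C1 means of 6.49 to 6.72, in all 5 groups. UGT2B13 was above background on 0, 1, 3, 1 and 2 arrays of the control and weeks 1, 2, 4 and 8. SULT1C2 and UGT2B14 were not well above background on any array, so nothing can be said of their change at this sensitivity. The plots of the uncalled members and of the arrays above background show these levels.

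**Figure D3:**
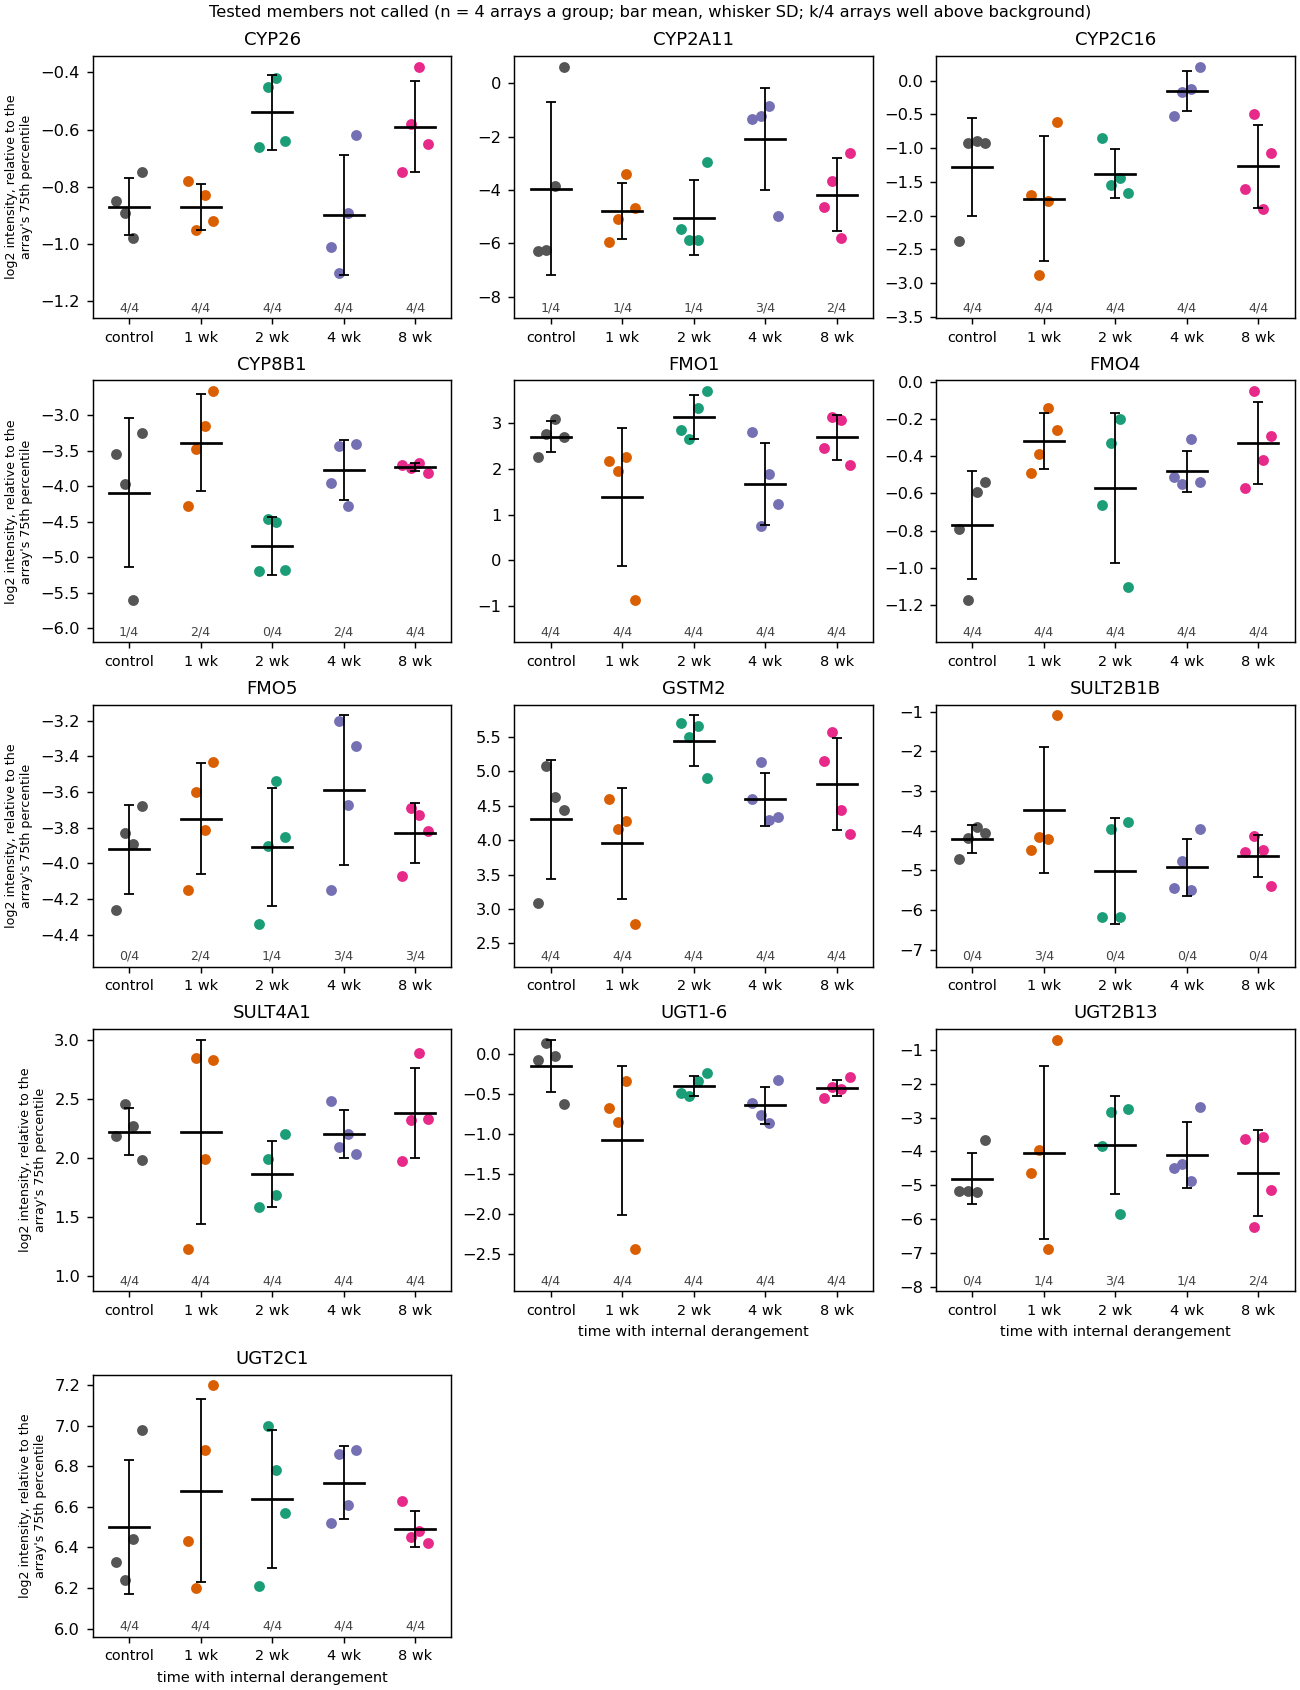
Levels of 13 tested members that were not called, on each of the 20 arrays (points), with group mean (bar), SD (whisker) and arrays of 4 well above background; the y axis is log2 intensity relative to the array's 75th percentile, with its own range in each panel, and the x axis is the group. FMO1 and UGT1-6 each have 1 week 1 array, replicate 4, far below the rest, at -0.87 and -2.43.

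**Figure D4:**
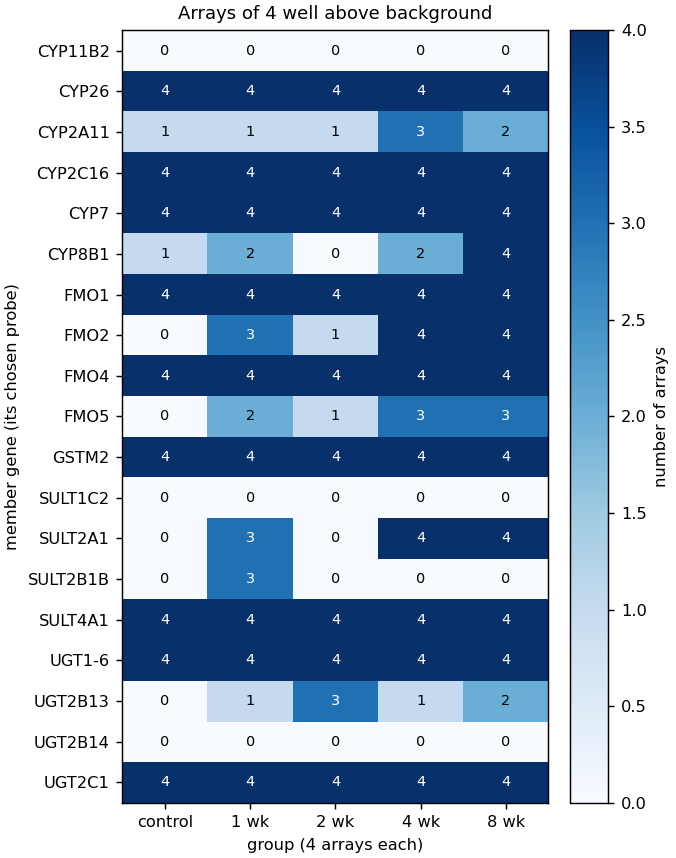
Number of arrays, of 4 in a group, on which each member's chosen probe was well above background; rows are 19 members, columns the 5 groups, and darker cells mean more arrays. CYP7, FMO1 and GSTM2 are among those with 4 of 4 in every group, while CYP11B2, SULT1C2 and UGT2B14 have 0 throughout.

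No member was called at week 2 or between the ID times. At week 2, scanned with the control, 0 of 17 tested members were called in limma, 3 had an unadjusted p under 0.05, and 0.457% of all probes were called. Week 4 against week 1 also gave 0, with 2 at an unadjusted p under 0.05 and 1.07% of all probes called. CYP7 was 0.78 higher at week 4 than at week 1, with no overlap of the arrays and a limma adjusted p of 0.11. Week 8 against week 1 gave 0 members (3 unadjusted, 0.0149% of all probes) and week 8 against week 4 gave 0 (3 unadjusted, 0.561% of all probes). The test for any difference among the 5 groups called FMO2, CYP7 and SULT2A1 (limma adjusted p = 0.00019, 0.0066 and 0.0071), where 15.8% of all probes were called, and 8 members had an unadjusted p under 0.05. The comparisons with the control share the same 4 control arrays. Over the 17 tested members the median difference from the control was 0.05, 0.11, 0.29 and 0.09 at weeks 1, 2, 4 and 8, and over all tested probes 0.03, 0.04, 0.03 and 0.04. The plot of differences gives 16 of the members with their errors.

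**Figure D5:**
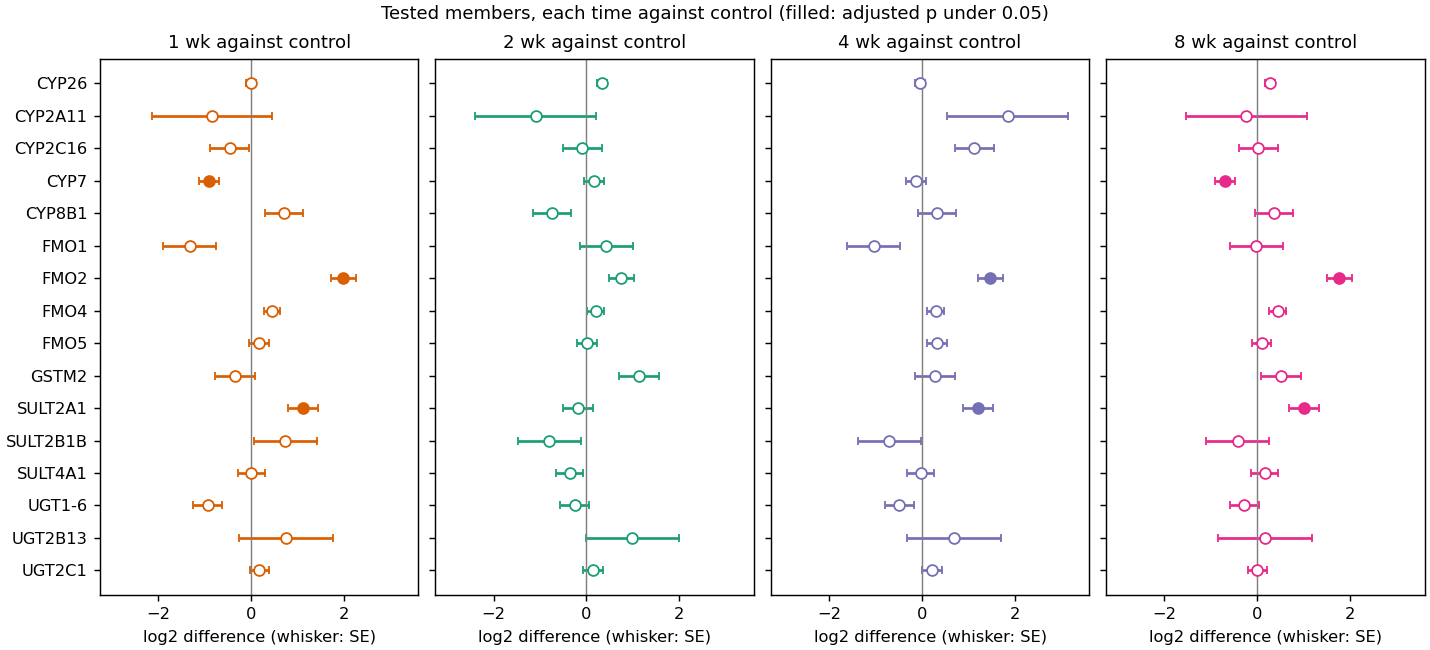
Difference from the control (x axis, log2) of 16 tested members at weeks 1, 2, 4 and 8, with the SE of the limma fit; each panel is a time, each row a member, and filled circles have an adjusted p under 0.05. FMO2 lies at 1.98, 0.75, 1.47 and 1.76, and CYP7 at -0.91, 0.16, -0.13 and -0.70.

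Around these enzymes, 78 further genes of the same pathways were listed, of which 35 were on the array by name and 27 were tested. At week 1, 5 were higher and 1 lower, where 9.77% of all probes were higher and 4.1% lower. At week 2 none was called (0.457% of all probes). At week 4, 4 were higher (6.42% of all probes), and 1 of these, ABCB11, lay below background in both groups. At week 8, 4 were higher and 1 lower (8.53% and 4.24% of all probes). Of the regulators that switch such enzymes on, 5 of 11 were found, and AHR and NR1I2 were not tested. PPARA, a nuclear receptor for fatty acids, was above background on no control array. It was 3.30 higher at week 1 (SE 0.45, limma adjusted p = 7.8e-05, at least 4.06-fold), 2.34 at week 4 (limma adjusted p = 0.0031, at least 2.09-fold) and 2.10 at week 8 (limma adjusted p = 0.0056, at least 1.76-fold). All 4 tested PPARA probes, of 15 on the array, were called higher at week 1. The PPARA probe given here passed the filter for testing only through ID groups, a selection that favours calls of higher. Of all tested probes with no control array above background, 49.1%, 44.2% and 46.9% were called higher at weeks 1, 4 and 8. Without control replicates 1 and 2 the week 4 and 8 calls of PPARA were lost (limma adjusted p = 0.08 and 0.12). ARNT, the partner of AHR, was 0.44 higher at week 1 (limma adjusted p = 0.034) at 1 of its 4 probes, and that call was lost without control replicate 1, 2 or 3 or week 1 replicate 2 or 4, and without both control replicates 1 and 2 (limma adjusted p = 0.11). The electron donors POR and CYB5A were not called; POR had means of 3.87 in the control and 3.76 at week 1.

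Of the transporters, SLC22A6 and ABCB11 were higher, and of the hydrolases PON3. SLC22A6, an uptake carrier for organic anions that was above background on all 20 arrays, was 1.04, 0.66 and 0.77 above the control at weeks 1, 4 and 8 (limma adjusted p = 8.4e-06, 0.0014 and 0.00028). ABCB11, the bile salt export pump, was above background on 0 control arrays and on 2, 1, 0 and 3 arrays at weeks 1, 2, 4 and 8. Like PPARA, it passed the filter for testing only through an ID group. It was at least 1.14-fold higher at week 1 (limma adjusted p = 0.0019) and at least 1.01-fold higher at week 8 (limma adjusted p = 0.0051). At week 4 it was below background in both groups, so no difference is given. PON3, a lactone-hydrolysing paraoxonase, was 1.58, 1.41 and 1.1 above the control at weeks 1, 4 and 8 (limma adjusted p = 0.0012, 0.0052 and 0.019). Each time it was called at 1 of its 3 tested probes, of 8 on the array. Without control replicates 1 and 2 the week 4 and 8 calls of PON3 were lost (limma adjusted p = 0.065 and 0.15), and the week 8 call also without control replicate 1 or week 8 replicate 1. SOD2, the mitochondrial superoxide dismutase, was lower, with differences of -0.79 at week 1 and -0.72 at week 8 (limma adjusted p = 0.00073 and 0.0022), at 4 of its 5 probes both times. It was also 0.58 higher at week 4 than at week 1 (limma adjusted p = 0.049), a call lost in 19 of 20 fits without 1 array. In the conjugation list PAPSS2, which makes the sulfate donor used by sulfotransferases, was called only in the test over the 5 groups (limma adjusted p = 0.049). With normexp none of the values of PPARA, ARNT, SLC22A6, ABCB11, PON3 and SOD2 just given was called.

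Because liver expresses most of these enzymes, liver markers were read too. ALB and AHSG were not tested for want of signal; APOA1, APOB and TF were tested, and their summed linear level was 24.3 to 31.9 in the control, 20.3 to 127 at week 1, 20.4 to 61.3 at week 2, 37.5 to 65.6 at week 4 and 18.0 to 44.9 at week 8. Of these APOA1 was called, 2.79 higher at week 1 (limma adjusted p = 0.015). Single genes of other marker lists were also called at week 1, 4 or 8. The adipocyte marker LEP, the 1 of 4 listed that was tested, was 1.33, 1.65 and 1.31 higher at weeks 1, 4 and 8 (limma adjusted p = 0.019, 0.0071 and 0.022), while ADIPOQ was not tested for want of signal. The summed level of that list was 0.0598 to 0.116 in the control and 0.156 to 0.459 at those weeks. LUM, 1 of 4 tested genes of fibrous tissue, was lower, with differences of -1.33, -1.14 and -1.19 (limma adjusted p = 0.011, 0.036 and 0.022). The fibrous sum was 1070 to 1300 in the control and 746 to 1410 at those weeks. The macrophage markers CD14 and MSR1 were lower at week 4, with differences of -1.29 and -2.05 (limma adjusted p = 0.013 and 0.035), and their sum was 3.97 to 6.24 in the control and 1.46 to 3.17 at week 4. The cartilage marker CNMD was called only in the test over the 5 groups (limma adjusted p = 0.034). None of the 3 endothelial and 3 erythroid genes tested was called in any comparison, and KRT18, the epithelial gene found, was not tested for want of signal. The part of these cell types in the member results was not tested. In bulk RNA, more cells of a type and more RNA per cell cannot be told apart.

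The naming rule missed further mRNAs of these families that the file describes in words. Some descriptions hold a symbol, such as CYP3A6, SULT1A1 or MGST3, that stands where the rule does not look or begins otherwise. After their values had been seen, 27 such mRNAs were gathered from descriptions that mention cytochrome P450, glutathione S-transferase or phenol sulfotransferase, and 15 were tested. At week 1, 6 were higher and none lower, where 9.77% of all probes were higher and 4.1% lower. At week 4, 5 were higher and none lower (6.42% and 2.15% of all probes). At week 8, 6 were higher and 1 lower (8.53% and 4.24%), and none was called at week 2 (0.457% of all probes called). Week 4 against week 1 had 1 called higher, where 0.903% of all probes were. This was a cytochrome P450 2D mRNA above background on all 20 arrays (difference 1.03, SE 0.16, limma adjusted p = 0.002). None was called at week 8 against week 1 or week 4. Each mRNA was counted by its tested probe with the highest mean level. For the polycyclic hydrocarbon-inducible P-450d mRNA that probe was not called. Of its 5 tested probes, 4, 4 and 3 were called higher at weeks 1, 4 and 8, and 1 was called lower at week 2. Of all tested probes with no control array above background, as for isozyme 2 next, 49.1%, 44.2% and 46.9% were higher at weeks 1, 4 and 8. Rabbit P450 isozyme 2 (type B2), of the phenobarbital-inducible subfamily, was above background on 0 control arrays and 4 week 1 arrays. It was 2.80 higher at week 1 (SE 0.24, limma adjusted p = 6.4e-07, at least 1.67-fold) and 2.17 higher at week 8 (limma adjusted p = 1.7e-05, at least 1.08-fold). Over 31 alternatives these differences went down to 0.45 and 0.03, and each call was lost in 1 of them. At week 4 isozyme 2 was 1.88 higher in the fit (limma adjusted p = 7.6e-05), with 1 array above background. Its week 4 mean of -4.0 did not exceed the mean detection floor of the control arrays, so there was no bound over 1. A related mRNA named P450IIB was above background on all 20 arrays. It read -1.91, -1.81, -1.80 and -1.64 in the control and -1.57, -1.32, -1.37 and -0.94 at week 1, a difference of 0.49 (SE 0.11, limma adjusted p = 0.0079), with no overlap. It was 0.62 higher at week 4 and 0.49 at week 8 (limma adjusted p = 0.0019 and 0.0091). Without control replicates 1 and 2 these 3 differences were 0.42, 0.55 and 0.41 and were not called (limma adjusted p = 0.12, 0.052 and 0.15). The calls of P450IIB at weeks 1, 4 and 8 were kept in 28, 29 and 29 of 31 alternatives.

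Isozyme 3a, the alcohol-inducible form, read -2.08, -0.65, -0.58 and -0.72 in the control and 0.79, 0.86, -0.62 and 1.5 at week 1. It was 1.64 higher at week 1 (SE 0.46, limma adjusted p = 0.025), and all 7 of its probes were called. The call was lost without control replicate 1 or without week 1 replicate 2 or 4 (limma adjusted p = 0.091, 0.058 and 0.084), and without control replicates 1 and 2 (difference 1.28, limma adjusted p = 0.20). At week 8 it read -1.86, -1.66, -2.32 and -1.33, which overlapped the control. The microsomal glutathione S-transferase MGST3 was the 1 mRNA called lower, with a difference of -0.76 at week 8 (limma adjusted p = 0.039).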

How the data were processed

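Levels were measured on 20 one-colour Agilent arrays, 4 per group, each with 43603 gene probes. Per the labels, total RNA was extracted with Trizol and labelled with Cy3. The deposited scanner files give the processed signal, a background-corrected intensity, from Agilent Feature Extraction 10.7.1.1, per the submitters' processing notes. They also give, per the file headers, flags for spots well above background and for outliers.

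From these intensities log2 levels were taken, each array's 75th percentile was subtracted, outlier spots were left out and spots of 1 probe averaged. The levels were fitted in limma 3.58.1 (R 4.3.3) with 5 group means over all 20 arrays, lmFit and eBayes. The script was tested on simulated data. The number of arrays limits the precision. Gene names are the file's, matched by accession to RefSeq's table for mOryCun1.1, which held 13 members; 32 names were added by hand from probe descriptions, and none of these made a member.

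The members and lists were chosen with earlier results of these data known. The genes named are the members and the called genes of the pathway lists, with marker genes and a few uncalled list genes; 1 tested member enters the counts and is not reported here. Alternatives changed the centring, the normalization, the background correction, the filter, the arrays fitted, the array weights and the probe rule. The authors' deposited value table holds the same intensities; its 4 week 8 columns each equal another week 8 array, so it was used only as an alternative.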

Additional observations from a re-analysis of the deposited data

Results flagged for a closer look

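Among 85 sets of 4 arrays (17 tested members in 5 groups), 8 held an array far from the other 3 by Dixon's 95% criterion for 4 values; chance gives about 1 in 20. CYP2A11 read -2.95 on week 2 replicate 4 and -4.97 on week 4 replicate 4, where the other arrays of those groups lay at -5.87 to -5.46 and -1.32 to -0.86. CYP2C16 read -2.38 on control replicate 1, against -0.93 to -0.90. On week 1 replicate 4 FMO1 read -0.87, against 1.96 to 2.27, and SULT2B1B read -1.09, against -4.48 to -4.15. FMO4 read -0.31 on week 4 replicate 3, against -0.55 to -0.51. SULT2A1 read -2.66 on week 4 replicate 4, against -3.58 to -3.51. UGT2B13 read -3.66 on control replicate 4, against -5.20 to -5.16.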

How the results depend on the processing

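FMO2 at week 1 kept its call in 30 of 31 alternatives, up to 2.17, and lost it with normexp (0.37), and CYP7 at week 1 in 29 of 31. SULT2A1 kept it in 24, 26 and 12 of 31 at weeks 1, 4 and 8, and CYP7 at week 8 in 14 of 31. With normexp the members called were 0 at weeks 1, 4 and 8 and in the test over 5 groups. It reversed FMO2 at week 4 (-0.07), SULT2A1 at weeks 2, 4 and 8 (0.10, -0.08 and -0.07), CYP7 at week 2 (-0.09), ABCB11 at weeks 4 and 8 (-0.23 and -0.05) and isozyme 2 at week 4 (-0.16). The cause was not tested. SULT2A1 at week 2 also reversed with the mean of its tested probes (0.05) and without week 2 replicate 3 (0.03; -0.57 to 0.03 over the 20 fits without 1 array), CYP7 at week 4 without control replicate 4 (0.03; -0.21 to 0.03), and CYP7 at week 2 without control replicates 1 and 2 (-0.06). The members called at week 8 were 1 with quantile normalization, with no filter and without control replicates 1 and 2. At week 4 they were 1 without those 2 controls and with the mean of each gene's tested probes. Median centring called 1 member, CYP7, between weeks 4 and 1, and array weights called 5 in the test over 5 groups.

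Leaving out 1 array at a time gave 2 to 4 members at week 1, 1 to 3 at week 4, 1 to 3 at week 8, 0 to 2 for week 4 against week 1 (2, CYP2C16 and CYP7, without week 1 replicate 4), 3 to 4 in the test over 5 groups, and 0 at week 2, for week 8 against week 1 and for week 8 against week 4. Over all probes normexp gave 44, 0, 28 and 34 calls at weeks 1, 2, 4 and 8, against 3732, 123, 2304 and 3436; fitting only the groups compared gave 1428 at week 1 and 0 at week 2. A fit within 1 scan day could give no value for weeks 1, 4 or 8 against the control.

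Replicate numbers did not pair the arrays: deviations of same-numbered arrays had a median correlation of 0.0083 over 40 pairs, and -0.0147 for different numbers. With the replicate block 3, 0, 2 and 3 members were called at weeks 1, 2, 4 and 8, and 3558, 101, 2186 and 3311 probes in all.

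Signal over background limits FMO2, SULT2A1, FMO5, CYP8B1, SULT2B1B, UGT2B13 and both CYP2A11 probes, which were below background on some or most arrays.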
